A study of Mus musculus with 18 samples.

Results

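The genes described are 10 subunits of BAF, the mammalian SWI/SNF chromatin remodeller: Smarca2, Smarca4, Smarcd1, Smarcd2, Smarcd3, Arid1a, Arid1b, Dpf2, Dpf3 and Actl6a. They were taken by symbol from a table of raw read counts for 23337 gene symbols, in which all 10 were found, and all 10 passed the filter on low counts that left 13116 genes for testing. The samples were mouse embryonic stem cells differentiated towards heart muscle and harvested at D15, D10, D8, D7, D6 and D5, with 3 RNA libraries per day and 18 in all. The labels call the D8, D10 and D15 cells immature cardiomyocytes and the D5, D6 and D7 cells cardiac progenitors. Every library came from the same line, TBX5-FTA on the A2Lox.cre background, untreated, so the time course has no second genotype and no unmodified line. Whether the 3 libraries of each day were grown as separate cultures is not stated. Each p-value therefore rests on how far these libraries spread, which may be technical.

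BAF uses the energy of ATP to slide or evict nucleosomes, which opens or closes DNA to transcription factors. Each complex is assembled from families of paralogs, and 1 paralog of a family is usually built into a given complex: SMARCA4 (BRG1) or SMARCA2 (BRM) as the ATPase, ARID1A or ARID1B as the DNA-binding subunit that defines canonical BAF, a SMARCD protein (BAF60) as a bridge to transcription factors, and a DPF protein (BAF45) with PHD fingers that read modified histones. In heart development, SMARCD3 (BAF60C) is known as the cardiac SMARCD paralog, which joins the ATPase to TBX5, NKX2-5 and GATA4 in the mouse embryo. DPF3 (BAF45C) is known for its role in heart and skeletal muscle development in zebrafish.

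The promoter stretches of Smarcd3 and Dpf3, the subunits known from heart development, are shown together with that of Smarcd2, the SMARCD paralog that was higher at D15. Each is the 250 bases before the start site in RefSeq (GRCm38.p6), 5′ to 3′ on the gene's strand. Capitals mark the motifs found on either strand among AGGTGT, the core letters of T-box sites, GATAA, the core letters bound by GATA factors, and CACGTG, an E-box. On the opposite strand the T-box core reads ACACCT and the GATA-factor core reads TTATC, and no 2 matches shown overlap. Smarcd3 is at chr5:24602003-24602252 on the minus strand, Dpf3 at chr12:83487737-83487986 on the minus strand, and Smarcd2 at chr11:106267633-106267882 on the minus strand.
Smarcd3: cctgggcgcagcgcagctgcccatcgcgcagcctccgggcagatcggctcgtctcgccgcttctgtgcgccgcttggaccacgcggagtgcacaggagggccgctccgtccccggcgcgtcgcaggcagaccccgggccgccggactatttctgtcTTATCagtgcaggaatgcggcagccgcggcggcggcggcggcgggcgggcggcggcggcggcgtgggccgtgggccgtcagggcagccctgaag
Dpf3: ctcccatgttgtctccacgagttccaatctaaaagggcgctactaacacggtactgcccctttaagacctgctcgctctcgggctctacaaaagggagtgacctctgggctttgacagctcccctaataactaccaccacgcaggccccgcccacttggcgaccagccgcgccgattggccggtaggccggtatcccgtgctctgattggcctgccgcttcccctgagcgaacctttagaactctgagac
Smarcd2: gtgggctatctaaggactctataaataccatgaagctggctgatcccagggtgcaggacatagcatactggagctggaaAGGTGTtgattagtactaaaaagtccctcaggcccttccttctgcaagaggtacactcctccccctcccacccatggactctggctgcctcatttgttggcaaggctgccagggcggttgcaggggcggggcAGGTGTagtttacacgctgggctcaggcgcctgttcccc

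The Smarcd3 stretch held 1 GATAA match and 38 CG pairs, the Dpf3 stretch no match and 16 CG pairs, and the Smarcd2 stretch 2 AGGTGT matches and 4 CG pairs. Over 32851 RefSeq promoter stretches of the same length, 11.8% held AGGTGT, 22.6% held GATAA and 6.02% held CACGTG, and the median number of CG pairs was 6. Among the other members, Smarcd1 and 1 of the 2 Arid1a starts held 1 GATAA match each, and Actl6a held 1 AGGTGT match. These are matches of letters in this window only. The RefSeq starts of Smarcd3 and Smarcd2 lie inside the longer genes that GENCODE M21 annotates, chr5:24590818-24624411 for Smarcd3 and chr11:106263179-106272972 for Smarcd2, both on the minus strand of GRCm38/mm10. Dpf3 spans chr12:83213745-83487716 on the minus strand, and its stretch lies just before that gene's start.

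Library totals ran between 5257601 and 7122093 counts, and the biological coefficient of variation of the fit was 8.27%. Counts were scaled to CPM, that is counts relative to the library's total, with TMM factors and tested with edgeR's quasi-likelihood F test, with Benjamini-Hochberg adjustment over all 13116 genes; a gene was called at an adjusted p under 0.05. In that test 88.9% of all genes differed between some of the 6 days, so a call on its own does not set a gene apart. At D15 against D5, 40.3% of all genes rose. Of 17 cardiomyocyte markers 15 rose, among them Tnnt2 and Myh6, and their summed level was 6588 to 11572 CPM at D15, against 633 to 729 CPM at D5. Of 12 fibroblast and matrix markers all 12 rose, and their summed level was 41978 to 51347 CPM at D15, against 870.4 to 925 CPM at D5, with Col1a1 and Col3a1 among those that rose. All 17 cardiomyocyte and all 12 matrix markers had counts on every day, and at D5 the progenitor gene Isl1 averaged 15.2 ± 3.43 CPM (SD, n = 3). The D15 harvests thus held markers of cardiomyocytes and of matrix-producing cells together, and in bulk RNA fewer cells of a type and less RNA per cell cannot be told apart. The part of cell mixture in the results that follow was not tested.

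Members of the complex mostly fell as differentiation went on. Between D15 and D5, 9 of the 10 members were called, against 78.0% of all genes: Smarca2 and Smarcd2 rose (40.3% of all genes rose), Smarcd1, Smarcd3, Dpf3, Actl6a, Arid1a, Smarca4 and Dpf2 fell (37.7% of all genes fell), and Arid1b was not called. The median log2 fold change of the 10 members was -0.74, while that of all genes tested was 0.032. The summed level of the 10 members was 937 to 996 CPM in the D15 libraries, against 1543 to 1638 CPM in the D5 libraries. The ranges of the D15 and D5 libraries did not overlap for 9 members, 2 higher and 7 lower, a pattern seen in 80.0% of all genes (41.2% higher and 38.8% lower). Across all 6 days all 10 members were called, against 88.9% of all genes, with the lowest F for Smarcd2 (3.75, adjusted p = 0.0118).

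**Figure D1:**
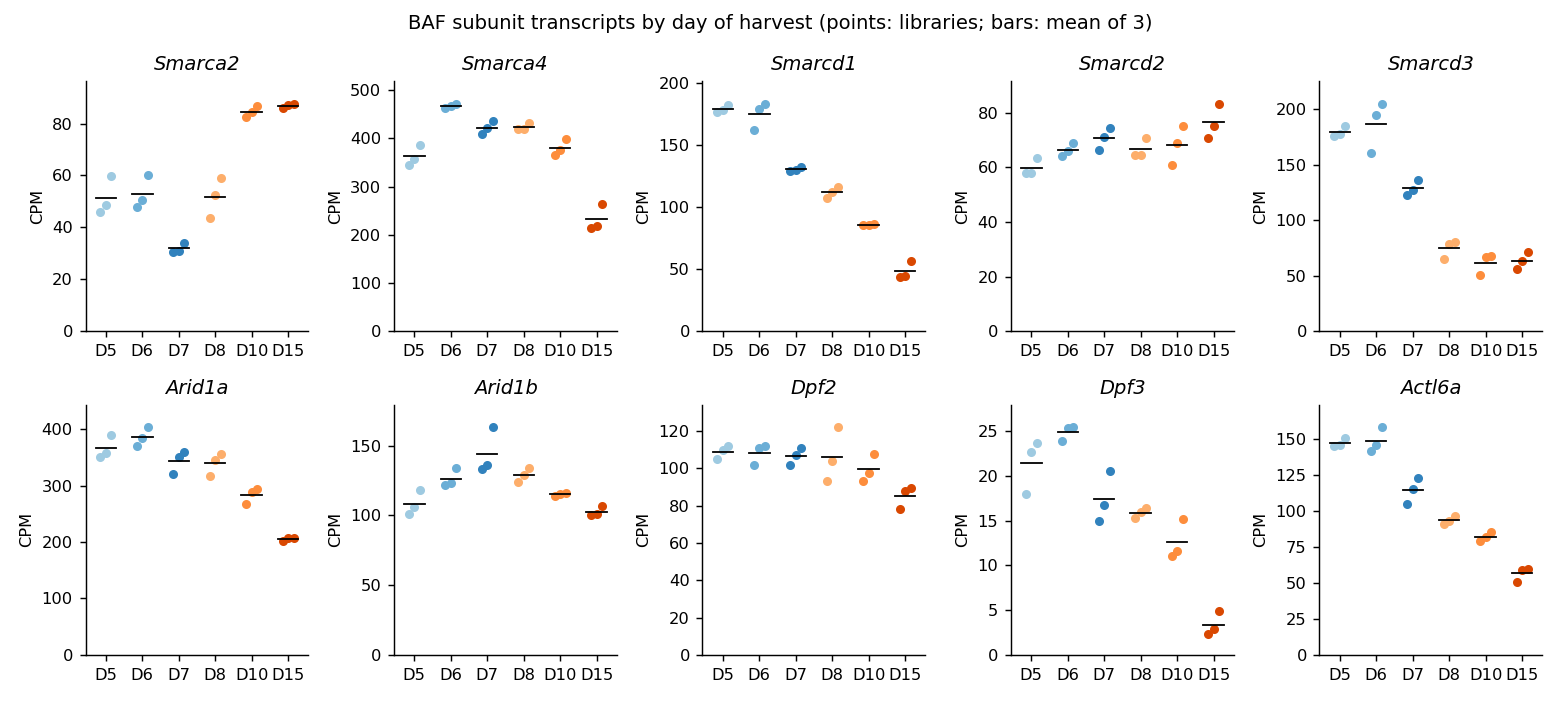
Level of each of the 10 BAF subunit transcripts in CPM (vertical axis, from 0) by day of harvest (horizontal axis); each point is 1 library and each bar the mean of 3. Smarcd1, Smarcd3, Dpf3 and Actl6a end well under their D5 level, for example Dpf3 at 2.3 to 4.94 CPM at D15 against 18 to 23.7 CPM at D5, while Smarca2 dips at D7 and ends at 85.9 to 87.6 CPM.

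Smarcd3 had 176, 185 and 178 CPM in the D5 libraries, 195, 205 and 161 CPM at D6, 136, 123 and 127 CPM at D7, 78.9, 80.4 and 65.1 CPM at D8, 66.6, 67.4 and 51.0 CPM at D10, and 71.6, 63 and 56.0 CPM at D15. The 3 cardiomyocyte days lay under every progenitor library, and D15, D10 and D8 overlapped one another. Smarcd3 fell by 1.5 ± 0.11 on the log2 scale at D15 against D5, which is 2.83-fold (SE, adjusted p = 4.5e-12). Most of that came in 2 steps, a log2 change of -0.54 ± 0.10 at D7 against D6 (adjusted p = 0.000203) and of -0.78 ± 0.11 at D8 against D7 (adjusted p = 5.55e-06). Smarcd3, known as the cardiac SMARCD paralog, was therefore highest on the first 2 days of the course and lowest in the libraries labelled cardiomyocyte.

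The exons of Smarcd3 share bases with those of Chpf2, a gene of chondroitin chain synthesis on the opposite strand. Of the merged exon bases of Smarcd3 48.2% are shared, and of the 1735 bases of transcript Smarcd3-201 642 are shared (37.0%, touching 5 of its 13 exons). The labels call the reads stranded but name the TruSeq RNA v2 kit, which in its standard form does not keep strand, and whether the counting used strand is not stated. Reads in the shared stretch can therefore not be assigned to either gene with certainty. Chpf2 itself moved the other way, with 82.7, 94.0 and 99.1 CPM at D15 against 25.7, 30.3 and 26.8 CPM at D5, a log2 change of 1.74 ± 0.09 (adjusted p = 1.3e-16). Of the other members, Smarcd1 shares 12.7% of its merged exon bases with the predicted genes Gm17349 and Gm34939 and Actl6a 11.6% with Mrpl47, all on the opposite strand, and the remaining 7 share under 2%. Mrpl47 was not called at D15 against D5 (log2 change -0.27 ± 0.14, adjusted p = 0.0854).

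Smarcd1 (BAF60A), the paralog found in many tissues, fell more than Smarcd3 over the whole course. It had 43.7, 44.6 and 56.1 CPM at D15, against 182, 178 and 176 CPM at D5, a log2 change of -1.89 ± 0.08 or 3.70-fold lower (adjusted p = 6.81e-19). Its day means were 179, 174, 130.3, 112, 85.7 and 48.2 CPM in day order, and from D6 on no library of a day overlapped those of the next. Every step from D7 on was called lower, the smallest at D8 against D7 (log2 change -0.22 ± 0.07, adjusted p = 0.0274).

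Smarcd2 (BAF60B) is best known from the making of granulocytes. It was the member of this family that rose, with 75.3, 70.8 and 83.3 CPM at D15 against 63.5, 57.8 and 57.8 CPM at D5. The libraries of the 2 days did not overlap, and the log2 change was 0.36 ± 0.09 or 1.28-fold (adjusted p = 0.000435). In the order of the day means the 5 days from D6 to D15 each overlapped the next, and no step between neighbouring days was called.

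Levels of different genes were set side by side per kilobase of merged exons. On that scale the 3 SMARCD transcripts together gave 45.7 ± 2.48 CPM per kb at D15 and 96.2 ± 1.33 CPM per kb at D5 (SD, n = 3 each). At D15 Smarcd2 made up 46.6 ± 1.45% of that sum, Smarcd3 27.3 ± 4.05% and Smarcd1 26.1 ± 2.67%. At D5 the same shares were 17.3 ± 0.79% for Smarcd2, 36.5 ± 1.03% for Smarcd3 and 46.2 ± 0.25% for Smarcd1. By these lengths Smarcd2 held the highest share of the family at D15 and the lowest at D5, although its own level moved least. These lengths include the 48.2% of Smarcd3 bases that are shared with genes on the opposite strand. How reads there were counted is not known, so the share of Smarcd3 and its place in the order are uncertain. With the longest transcript of each gene in place of merged exons, the shares at D15 were 47.0% for Smarcd2, 28.5% for Smarcd3 and 24.5% for Smarcd1, in the same order. Transcript Smarcd3-201 is shorter, at 1735 bases against 3774 for the longest of Smarcd3, and shares by its length were not computed. A shorter length would raise the share of Smarcd3, so the order holds only for the lengths used.

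**Figure D2:**
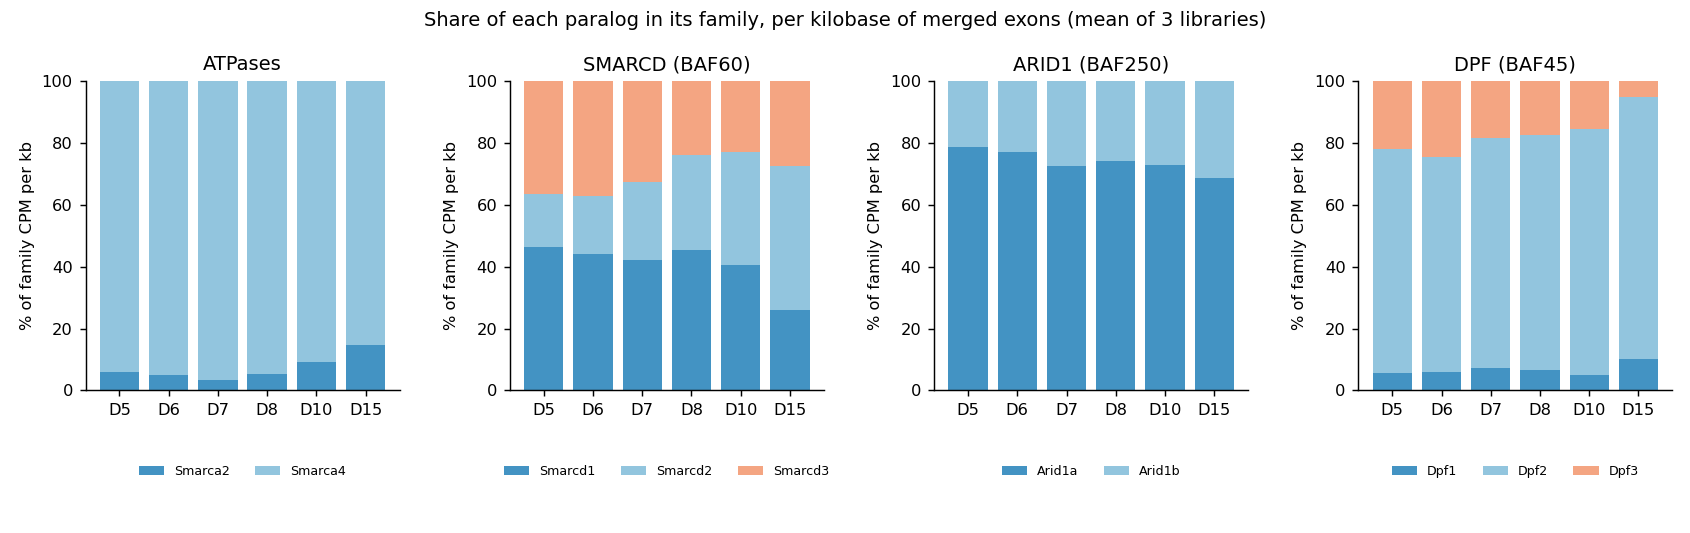
Share of each paralog in its family's summed CPM per kilobase of merged exons (vertical axis, percent), by day of harvest, as the mean of 3 libraries. The Smarcd2 share is 46.6% at D15 and 17.3% at D5, the Dpf3 share 5.12% at D15 and 22.0% at D5, and the Smarca2 share 14.6% at D15 and 6.03% at D5. The SMARCD shares make no allowance for the bases that Smarcd3 shares with Chpf2, and their order depends on the length taken for Smarcd3.

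Dpf3 had the largest decline of the 10 members at D15 against D5. It had 23.7, 18 and 22.7 CPM at D5, 25.4, 23.9 and 25.3 CPM at D6, 16.7, 20.5 and 14.9 CPM at D7, 16.4, 15.3 and 16.0 CPM at D8, 11, 15.2 and 11.6 CPM at D10, and 4.94, 2.30 and 2.88 CPM at D15. The D15 libraries lay under all others, on 28, 13 and 18 reads, and the D10 libraries under those of D8, D6 and D5. The log2 change at D15 against D5 was -2.68 ± 0.21, or 6.39-fold lower (adjusted p = 2.4e-12), and most of it fell between D15 and D10 (-1.91 ± 0.23, adjusted p = 5.89e-08). The step at D7 against D6 was smaller (-0.52 ± 0.16, adjusted p = 0.0152), and it was not called without the D7 library that had 14.9 CPM (-0.42, adjusted p = 0.0883).

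Dpf2 (BAF45D), the broadly present paralog, had 89.8, 87.7 and 78.3 CPM at D15 against 110.1, 112 and 105 CPM at D5. The 2 days did not overlap, and the log2 change was -0.35 ± 0.09 or 1.28-fold lower (adjusted p = 0.000453). The decline at D15 against D10 (-0.22 ± 0.09, adjusted p = 0.0339) was not called with DESeq2 (adjusted p = 0.0635) or when any of 3 libraries was left out, namely the D15 library with 78.3 CPM (adjusted p = 0.156), the D10 library with 108 CPM (0.16) and the D10 library with 97.6 CPM (0.0536). Per kilobase Dpf2 made up 84.7 ± 0.78% of the DPF sum at D15 and 72.4 ± 2.40% at D5, and Dpf3 5.12 ± 1.85% at D15 and 22.0 ± 2.87% at D5. Dpf1 (BAF45B), the paralog of neurons, was present at a low level, 8.44 ± 0.82 CPM at D15 and 6.91 ± 0.65 CPM at D5 (SD, n = 3 each), and was not called (log2 change 0.29 ± 0.23, adjusted p = 0.248).

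Of the ATPases, Smarca4 was the higher on every day per kilobase, and at D15 against D5 Smarca4 fell while Smarca2 rose. Smarca4, the ATPase that the early embryo and the developing heart need, had 344, 358 and 386 CPM at D5, 463, 472 and 467 CPM at D6, 409, 421 and 436 CPM at D7, 419, 419 and 432 CPM at D8, 377, 398 and 366 CPM at D10, and 218, 214 and 264 CPM at D15. It was highest at D6 and lowest at D15, with no overlap between either day and any other. It rose at D6 against D5 (log2 change 0.37 ± 0.07, adjusted p = 7.19e-05) and fell at D15 against D10 (-0.71 ± 0.07, adjusted p = 6.42e-10), which left it 1.56-fold lower at D15 than at D5 (-0.64 ± 0.07, adjusted p = 1.01e-09).

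Smarca2, the ATPase better known from differentiated cells, had 45.8, 48.7 and 59.7 CPM at D5, 47.7, 50.5 and 60.0 CPM at D6, 30.9, 30.7 and 34.1 CPM at D7, 52.4, 43.6 and 59.2 CPM at D8, 82.4, 86.8 and 84.6 CPM at D10, and 87.6, 87.3 and 85.9 CPM at D15. It was lowest at D7, highest at D10 and D15, which overlapped, while D5, D6 and D8 overlapped one another. Both turns were called: it fell at D7 against D6 (log2 change -0.72 ± 0.11, adjusted p = 1.04e-05), rose at D8 against D7 (0.70 ± 0.11, adjusted p = 2.46e-05) and rose again at D10 against D8 (0.71 ± 0.10, adjusted p = 4.1e-06). At D15 it was 1.69-fold higher than at D5 (0.76 ± 0.10, adjusted p = 1.19e-07). Per kilobase of merged exons it made up 14.6 ± 1.54% of the ATPase sum at D15 and 6.03 ± 0.46% at D5, with its lowest share, 3.31 ± 0.11%, at D7. The merged exons of Smarca2 span 14269 bases while its longest transcript has 5921, and by the latter the shares were 28.9% at D15, 7.52% at D7 and 13.2% at D5.

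Arid1a and Arid1b carry the AT-rich interaction domain. The log2 ratio of Arid1b to Arid1a reads had day means of -1.76 at D5, -1.61 at D6, -1.26 at D7, -1.39 at D8, -1.30 at D10 and -1.0 at D15, so most of its shift was present at D7. Arid1a had 207, 208 and 202 CPM at D15 against 351, 358 and 389 CPM at D5, with no overlap, a log2 change of -0.83 ± 0.06 or 1.78-fold lower (adjusted p = 1.23e-12). Arid1b had 101, 100 and 107 CPM at D15 against 101, 106 and 118 CPM at D5, and these overlapped (-0.08 ± 0.08, adjusted p = 0.368). Scaled by library totals alone, which moved the median of all genes to -0.129, Arid1b was called lower (-0.24, adjusted p = 0.00527). Its course was a hump: the day means were 108, 126, 144, 129, 115 and 103 CPM in day order, with a rise at D6 against D5 (0.22 ± 0.08, adjusted p = 0.0254) that was not called without the D5 library with 101 CPM (adjusted p = 0.129), the D5 library with 106 CPM (0.084) or the D6 library with 134 CPM (0.128). Per kilobase Arid1b made up 31.2 ± 1.13% of the ARID1 sum at D15 and 21.2 ± 0.38% at D5.

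Actl6a (BAF53A), the actin-like subunit of dividing and progenitor cells, had 50.8, 59.0 and 60.0 CPM at D15 against 145, 151 and 146 CPM at D5. No day from D7 on overlapped another in its level, and the log2 change was -1.38 ± 0.08 or 2.60-fold lower at D15 than at D5 (adjusted p = 6.71e-16). Its paralog Actl6b (BAF53B), which replaces it in neurons, had no read in any of the 18 libraries.

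**Figure D3:**
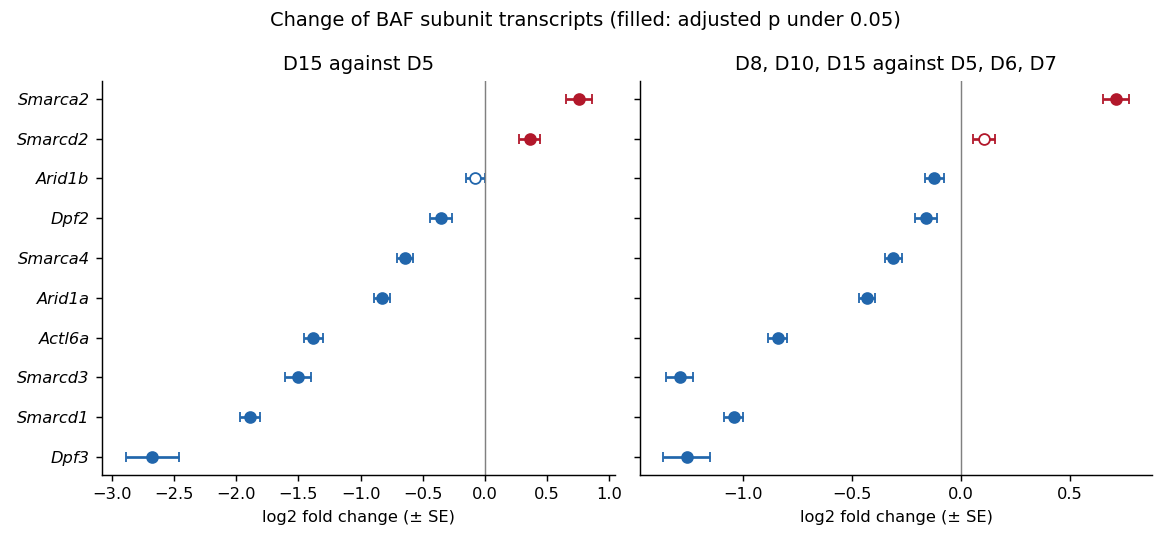
Log2 fold change with its SE (horizontal axis) for each member (vertical axis), at D15 against D5 on the left and for D8, D10 and D15 against D5, D6 and D7 on the right; filled points have an adjusted p under 0.05. Smarca2 and Smarcd2 lie right of 0 at D15 against D5, and the members on the left run as far as -2.68 for Dpf3.

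Averaged over the stages that the labels name, 9 of 10 members were called between cardiomyocyte harvests (D8, D10, D15) and progenitor harvests (D5, D6, D7), against 77.1% of all genes. Smarca2 rose (39.3% of all genes rose) by 0.71 ± 0.06 on the log2 scale. Smarcd3 (-1.29 ± 0.06), Dpf3 (-1.26 ± 0.11), Smarcd1 (-1.05 ± 0.04), Actl6a (-0.84 ± 0.04), Arid1a (-0.43 ± 0.04), Smarca4 (-0.31 ± 0.04), Dpf2 (-0.16 ± 0.05) and Arid1b (-0.12 ± 0.04) fell (37.8% of all genes fell). Smarcd2 was not called (0.10 ± 0.05, adjusted p = 0.058), and it was called with RLE factors (adjusted p = 0.0246), upper quartile factors (0.041), DESeq2 (0.034) and a filter of 1 CPM in 9 libraries (0.0347), and without any 1 of 4 libraries, of D5, D7, D10 and D15 (0.0206 to 0.0441). The Arid1b call was lost with DESeq2 (-0.10, adjusted p = 0.0552). The median over the members was -0.37, while that over all genes was 0.013. Only Smarcd1, Smarcd3 and Actl6a had no overlap between the 9 libraries of each stage, 3 of 10 members, all lower, against 16.9% of all genes (8.67% higher and 8.23% lower). The SE and p here rest on the spread of libraries within a day, not between the days of a stage. Smarca4 averaged 424 CPM at D8, 380.4 CPM at D10 and 232 CPM at D15, against 362 CPM at D5. Arid1b averaged 129, 115 and 103 CPM on those 3 days, against 108 CPM at D5. Smarca2 averaged 51.7 CPM at D8, against 52.7 CPM at D6.

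The members did not move on the same day. At D6 against D5, 2 members rose (Smarca4 and Arid1b), against 18.2% of all genes that rose and 34.6% called. At D7 against D6, 6 fell (Smarca2, Smarcd1, Smarcd3, Dpf3, Actl6a and Arid1a), against 15.3% of all genes that fell and 30.4% called. The Arid1a step there was small (-0.17 ± 0.06, adjusted p = 0.0392) and was not called with upper quartile factors (0.0541), with no filter (0.0562) or with the 2 days fitted alone (0.063). Without a D6 library it was not called in 2 of 3 cases (adjusted p = 0.164 without that with 403 CPM and 0.0793 without that with 384 CPM), nor without the D7 library with 320 CPM (0.18) or 349.9 CPM (0.0606). At D8 against D7, 1 rose (Smarca2) and 3 fell (Smarcd3, Actl6a and Smarcd1), against 12.6% of all genes that rose, 11.6% that fell and 24.2% called, and the Smarcd1 step was not called without any 1 of 5 of the 6 libraries of these days (adjusted p = 0.057 to 0.0963). At D10 against D8, 1 rose (Smarca2) and 2 fell (Smarcd1 and Arid1a), against 17.3% of all genes that rose, 13.9% that fell and 31.2% called. At D15 against D10, 6 fell (Dpf3, Smarcd1, Smarca4, Actl6a, Arid1a and Dpf2), against 24.4% of all genes that fell, 26.4% that rose and 50.8% called; of the genes called there 52% were higher, and 38.9% were when libraries were scaled by their totals alone.

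Ratios of paralogs within a library do not depend on how libraries are scaled. They were compared between the 9 cardiomyocyte and 9 progenitor libraries for 6 pairs with a two-sided exact permutation test, adjusted over the 6 pairs. The log2 ratio of Smarcd3 to Smarcd2 reads was -0.09 ± 0.32 in cardiomyocyte libraries and 1.31 ± 0.36 in progenitor libraries (SD, n = 9 each), a difference of -1.40 with no overlap (exact p = 4.11e-05, the smallest possible for 9 against 9 libraries taken as independent, adjusted p = 0.000247). The log2 ratio of Smarcd2 to Smarcd1 was -0.14 ± 0.64 in cardiomyocyte and -1.29 ± 0.32 in progenitor libraries, a difference of 1.15 (exact p = 8.23e-05, adjusted p = 0.000247).

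The ratio of Smarcd3 to Smarcd1 gave no such difference: its log2 value was -0.22 ± 0.52 in cardiomyocyte and 0.03 ± 0.08 in progenitor libraries, a difference of -0.25 (exact p = 0.175, also after adjustment). With medians in place of means the difference was -0.38 (adjusted p = 0.0471), without the D15 library that had 71.6 CPM of Smarcd3 it was -0.37 (adjusted p = 0.023), and without that with 63 CPM it was -0.34 (adjusted p = 0.0486). The day means of this ratio were 0.01 at D5, 0.10 at D6, -0.02 at D7, -0.58 at D8, -0.49 at D10 and 0.40 at D15, so D15 lay above D8 and D10, and 0.39 above D5 with overlapping libraries.

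The ratio of Dpf3 to Dpf2 was lower in cardiomyocyte libraries, at -3.47 ± 0.97 against -2.37 ± 0.27 in progenitor libraries on the log2 scale, a difference of -1.10 (exact p = 0.000535, adjusted p = 0.00107). The ratio of Smarca2 to Smarca4 was higher, at -2.21 ± 0.72 against -3.23 ± 0.41, a difference of 1.03 (exact p = 0.00226, adjusted p = 0.00339). The ratio of Arid1b to Arid1a was also higher, at -1.23 ± 0.19 against -1.54 ± 0.23, a difference of 0.31 (exact p = 0.00786, adjusted p = 0.00943). Apart from Smarcd3 to Smarcd2, the libraries of the stages overlapped in every pair. The test takes libraries of a day as independent, and with the 3 days of each stage as units no p could go under 0.1. At D15 against D5, given as values since 3 against 3 cannot go under 0.1 either, the log2 ratio differed by -2.35 for Dpf3 to Dpf2, 2.26 for Smarcd2 to Smarcd1, -1.86 for Smarcd3 to Smarcd2, 1.42 for Smarca2 to Smarca4 and 0.75 for Arid1b to Arid1a, each with no overlap between the days.

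**Figure D4:**
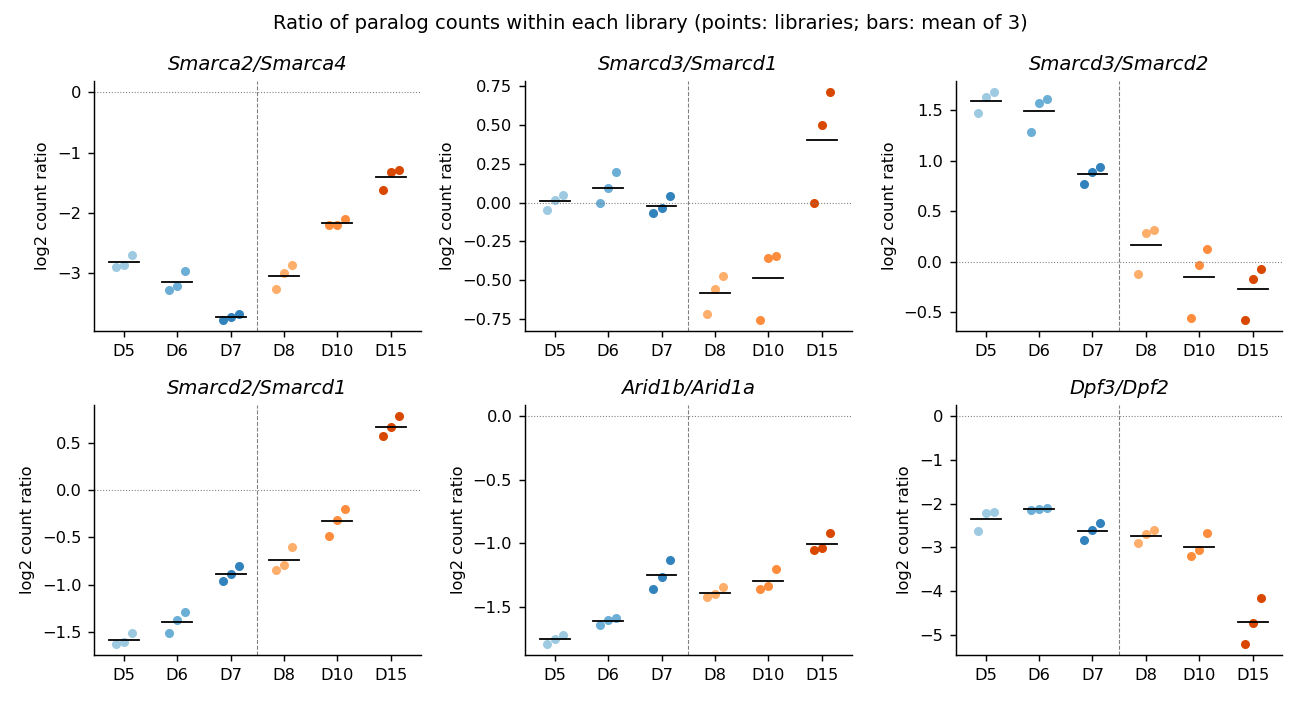
Log2 ratio of the read counts of 2 paralogs within each library (vertical axis) by day of harvest (horizontal axis), for 6 pairs; points are libraries, bars the mean of 3, and the dashed line parts the days labelled progenitor (left) and cardiomyocyte (right), in day order. Smarcd3/Smarcd2 shows no overlap between the stages, with means of -0.09 in cardiomyocyte and 1.31 in progenitor libraries.

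Smarcd3 and Dpf3 were set beside the heart factors that the complex is known to work with. Of 9 such factors 6 rose and 3 fell at D15 against D5, against 40.3% of all genes that rose and 37.7% that fell. Those that fell were Isl1 (means of 2.38 CPM at D15 and 15.2 CPM at D5), Hand2 (60.4 and 84.9 CPM) and Srf (103 and 153 CPM). Tbx5 had 86.2, 74.9 and 57.6 CPM at D15 against 6.54, 6.56 and 6.13 CPM at D5, a log2 change of 3.51 ± 0.41 (adjusted p = 3.37e-06). Nkx2-5 averaged 11.1 ± 3.38 CPM at D15 and 0.889 ± 1.05 CPM at D5 (SD, n = 3 each), a log2 change of 3.64 ± 0.75 (adjusted p = 0.000428). Gata4 averaged 231 ± 6.21 CPM at D15 and 159 ± 22.6 CPM at D5, a log2 change of 0.54 ± 0.15 (adjusted p = 0.00444), although it fell at D15 against D10 (-1.07 ± 0.15, adjusted p = 2.61e-05). The transcripts of Tbx5, Nkx2-5 and Gata4 were thus higher at D15 than at D5. Those of Smarcd3 and Dpf3 were lower, as were those of Isl1, Hand2 and Srf.

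Within a day the 3 libraries differed in cardiomyocyte marker level, with the highest at 1.15 to 2.51 times the lowest. The library with the lowest marker sum was also lowest in Tbx5 and in Nkx2-5 on 6 of 6 days and in Gata4 on 5. Of the members, it was lowest in Smarcd3 and in Arid1a on 4 days, in Smarcd1 on 3, and in Arid1b, Dpf2 and Actl6a on 2. In Smarca2, Smarca4, Smarcd2 and Dpf3 it was lowest on 1 day each. It was highest in Smarca2, Smarca4, Smarcd2 and Arid1b on 4 days each, in Arid1a, Smarcd1 and Actl6a on 2 days each, and in Dpf2 on 1. The same counts over all genes were not made, so these do not set a member apart. Without the library lowest in these markers on each day, a setting chosen after seeing the data, 9 members were called at D15 against D5 (2 higher, 7 lower), and between the stages 8 were called, with Arid1b lost (adjusted p = 0.126). Of all genes, 5127 were called higher and 4741 lower at D15 against D5, and 4964 higher and 4743 lower between stages. The member counts alone therefore do not set the complex apart. The same setting lost Dpf3 at D7 against D6 (-0.41, adjusted p = 0.136), Smarcd1 at D8 against D7 (-0.19, adjusted p = 0.0909) and Dpf2 at D15 against D10 (-0.10, adjusted p = 0.443), and added Smarcd3 at D10 against D8 (-0.25, adjusted p = 0.0483).

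**Figure D5:**
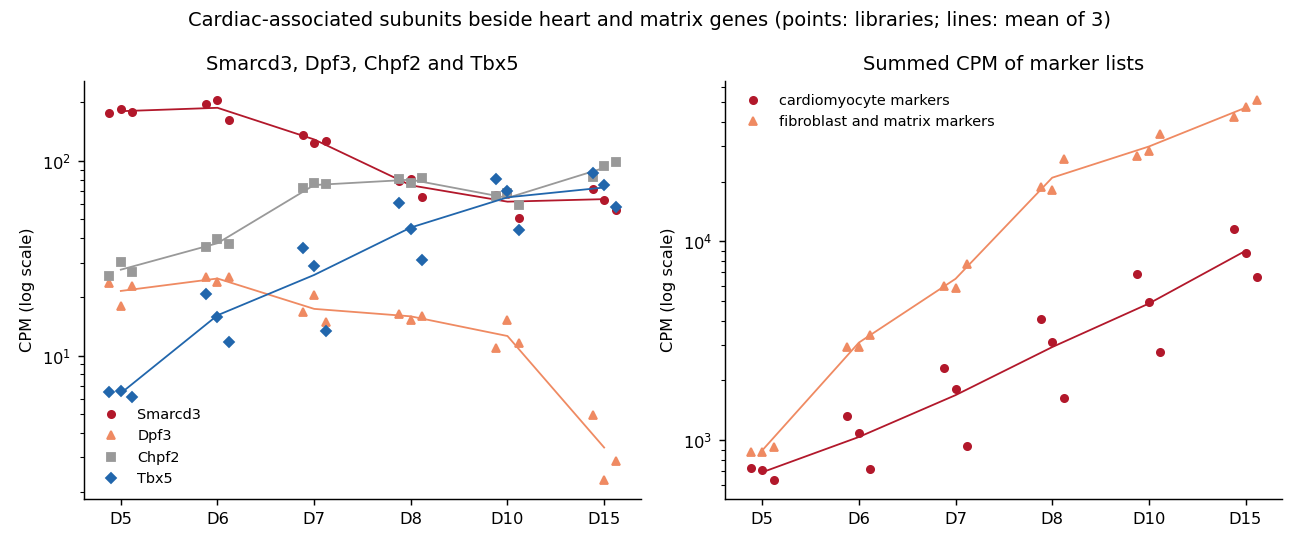
Left, CPM on a log scale of Smarcd3, Dpf3, the heart factor Tbx5, and Chpf2, whose exons overlap those of Smarcd3, by day of harvest; right, summed CPM of the cardiomyocyte and of the fibroblast and matrix marker lists on a log scale. Points are libraries and lines the mean of 3; Tbx5 reaches 57.6 to 86.2 CPM at D15 against 6.13 to 6.56 CPM at D5, while Smarcd3 and Dpf3 run downwards.

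By Pearson's r of log2 CPM over the 18 libraries, the 5 genes most like Smarcd3 among 10245 others were Pvrl1 (nectin-1, a cell adhesion molecule; r = 0.988), Psmc4 (a proteasome ATPase; 0.965), Hat1 (a histone acetyltransferase; 0.964), Csrp2 (a LIM domain protein; 0.963) and Blmh (a cysteine protease; 0.96). Pvrl1 had day means of 53.9, 54.8, 28, 13.8, 10.7 and 10.3 CPM in day order. Those most like Dpf3 were Rragd (a GTPase of nutrient sensing; r = 0.97), Pja1 (a ubiquitin ligase; 0.97), Pask (a PAS domain kinase; 0.966), Elovl4 (a fatty acid elongase; 0.965) and Pcm1 (a centriolar satellite protein; 0.964). An r of at least 0.9 was reached by 2.98% of the genes with Smarcd3 and by 3.68% with Dpf3. The points share their days and depths, so r here describes a common course in time. By Spearman's rho Pvrl1 again came first for Smarcd3 (0.975), and Gins1 came first for Dpf3 (0.977). Among the members themselves r was highest between Smarcd1 and Actl6a (0.982), was 0.699 between Smarcd3 and Dpf3, and was below 0 between Smarca2 and each other member except Smarcd2 (0.257).

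Of 20 further BAF subunits 19 were matched in the table and 18 tested. At D15 against D5, 3 rose and 10 fell, against 40.3% of all genes that rose and 37.7% that fell, with a median log2 change of -0.32. Smarcc1 and Smarce1, core subunits present in most BAF complexes, fell by 1.09 ± 0.06 and 1.11 ± 0.10 on the log2 scale (adjusted p = 9.29e-16 and 1.8e-11), with means of 205 ± 18 CPM at D15 and 437 ± 13.4 CPM at D5 for Smarcc1 and 53.1 ± 0.63 CPM at D15 and 115 ± 3.38 CPM at D5 for Smarce1. Smarcc2, the paralog of Smarcc1, rose by 0.65 ± 0.08 (adjusted p = 8.14e-09), with 166 ± 12.1 CPM at D15 and 106 ± 7.19 CPM at D5. Its highest day mean was 211 ± 11.7 CPM, at D10. Smarcc2 was named after its values were seen. Bcl11a and Bcl11b, zinc-finger subunits best known from blood and neurons, rose on few reads, with 71 reads at D15 and 5 at D5 for Bcl11a and 60 at D15 and 9 at D5 for Bcl11b over the 3 libraries (log2 change 4.12 ± 0.58, adjusted p = 2.07e-07, and 3.02 ± 0.58, adjusted p = 2.53e-05). Both had their highest day mean at D10. Bcl11a averaged 11.4 CPM at D10 and 4.06 CPM at D15, and Bcl11b 10.6 CPM at D10 and 3.42 CPM at D15.

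Of 17 remodellers outside BAF 16 were tested, and at D15 against D5, 2 rose and 9 fell, with a median of -0.45, against the same shares of all genes (40.3% rose and 37.7% fell). Chd7, a CHD-family remodeller whose human gene is mutated in CHARGE syndrome, averaged 19.2 ± 5.86 CPM at D15 and 133 ± 8.89 CPM at D5 (log2 change -2.80 ± 0.15, adjusted p = 1.87e-13). Hells, a remodeller needed for DNA methylation, averaged 44.3 ± 6.87 CPM at D15 and 187 ± 12.4 CPM at D5 (-2.08 ± 0.10, adjusted p = 8.07e-16). Chd1 fell (-1.09 ± 0.09, adjusted p = 4.3e-12) and Chd9 rose (1.33 ± 0.09, adjusted p = 6.52e-14). No difference between these lists and the 10 members was tested.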

How the data were processed

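Polyadenylated RNA of mouse stem cell cultures was sequenced as single-end reads of 50 bases, per the labels' protocols. The authors deposited raw read counts per gene symbol; the submitters' processing notes name STAR and mm10, and the counter and its strand setting are not given in the sources used here. Of 21 columns 18 were tied to a day by name; 3 columns matched no sample and were not used. The columns carry no replicate number.

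The main test of these counts was that of edgeR 4.0.16, run with limma 3.58.1 under R 4.3.3 (filterByExpr with a minimum count of 10, TMM, robust quasi-likelihood, 1 mean per day, 12 residual degrees of freedom) and checked with DESeq2 1.42.0; scripts were tested on simulated data. Totals of 5257601 to 7122093 counts give their precision through the spread of 3 libraries a day. Pairs of a day differed by more than counting noise (chi-square over its degrees of freedom 2.23 to 9.63), so none was a copy. Ratios added 0.5 to each count and used scipy 1.17.1. Lengths and exon overlaps came from GENCODE M21, and promoters from RefSeq.

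The members and lists were chosen with earlier results of these data known. Named were all members and the 4 called genes of each other remodeller list with the largest log2 change at D15 against D5. Also named were Dpf1, Actl6b, Tbx5, Gata4 and Nkx2-5, and the 5 genes most like Smarcd3 and Dpf3. Chpf2, Mrpl47, Isl1, Hand2, Srf and Smarcc2 were added after their values were seen. Alternatives were other scalings, filters and tools, the days fitted alone, each library left out, other constants and medians for the ratios, other lengths and Spearman's rho. For the further lists, epicardium had 6 of 7 genes higher at D15 against D5, endothelium 7 of 8, smooth muscle 3 higher and 3 lower of 6, neural 2 higher and 4 lower of 6 tested, endoderm 2 higher and 2 lower of 4 tested, and pluripotency 1 lower of 1 tested. Of all genes 40.3% were higher and 37.7% lower there.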

Additional observations from a re-analysis of the deposited data

How the results depend on the processing

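At D15 against D5 the members called stayed at 9 (2 higher, 7 lower) without each library in turn. Over the same fits 9967 to 10405 of all genes were called, and 10027 to 10153 between the stages. The members called between stages were 9 to 10, with 1 to 2 higher, when a library was left out, and 2 were higher with RLE factors, upper quartile factors, DESeq2 or a filter of 1 CPM in 9 libraries, where Smarcd2 was added. At D6 against D5 the members called were 1 to 2 without a library, all higher. At D7 against D6, 1 member (Arid1b) was higher with upper quartile factors or library totals, and 0 to 1 without a library. At D10 against D8 library totals called 6 members with 5 lower, and leaving out a library gave 3 to 6 with 2 to 5 lower. At D15 against D10, 0 to 1 members were higher without a library, Smarcd2 without the D10 library that had 75.2 CPM of it. The cause of these shifts was not tested. The difference in the log2 ratio of Smarcd3 to Smarcd1 was -0.38 with medians and ran between -0.37 and -0.18 without a library; that of the other 5 pairs was called in all of them. Across days Smarcd2 was not called with library totals (adjusted p = 0.146), without the D15 library that had 83.3 CPM of it (0.0561) or without the library lowest in cardiomyocyte markers on each day (0.228). No value changed sign while called. No paired analysis was possible because the columns of the count table carry no replicate number of the labels, and their order alone was not taken to pair libraries. Depth limits Dpf3 at D15, with 13 to 28 reads per library.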

Other observations

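On each of the 6 days the summed cardiomyocyte marker level was highest in the first of the 3 columns of the day and lowest in the last, for example 11572, 8738 and 6588 CPM in column order at D15, and 729, 713 and 633 CPM at D5. The columns' running numbers are in no label, so no pairing of libraries across days was assumed, and every test treats the libraries of a day as unpaired.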
